A study of Rattus norvegicus with 10 samples.

Results

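H3K9me3, a trimethylated lysine in the tail of histone H3, was mapped by chromatin immunoprecipitation and sequencing (ChIP-seq) in RCS, a permanent line of rat chondrosarcoma cells that keeps features of cartilage cells. The results concern every interval of the deposited H3K9me3 peak list, 52431 of the 252939 peaks in the 6 lists of the series, set beside the input library of the same cells. The labels name an H3K9me3 antibody of Abcam with the number ab8889. That is not the number commonly cited for the supplier's H3K9me3 antibody, and peak lists alone could not settle which antibody was used. The input, made without an antibody, serves the H3K4me1, H3K4me3 and H3K9me3 libraries together. Neither library came from treated or genetically altered cells as far as the labels say, and every library of the series comes from the same tumour line. There was 1 library per antibody, so no value has a replicate error, differences between lists could not be tested, and the intervals given cover counting error only. Neighbouring peaks are not independent, which makes those intervals narrower than the spread another library would give.

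H3K9me3 is laid down by histone methyltransferases such as SETDB1 and the SUV39H enzymes and is bound by HP1 proteins, which compact chromatin. It is known for silencing transposable elements and for covering the satellite repeats near centromeres, clusters of zinc finger genes and other gene families that are kept off in a given cell type. It can spread from a starting point to neighbouring nucleosomes, so its domains are often broad and appear in peak lists as rows of adjacent peaks. Reads from exact repeats are hard to place, and peak lists therefore represent the unique flanks and diverged copies of such elements better than the repeats themselves.

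The peaks were narrow, and most scores lay in the lower part of their range. The median width was 701 bp (quartiles 568 and 959 bp), the narrowest was 213 bp and the widest 15000 bp, and together the peaks covered 45.1 Mb. The score, a value per peak that the authors deposited without a stated scale, had a median of 87.8 (quartiles 63.3 and 154) and a lowest value of 50.03, and 19.7% of peaks scored 60 or less. The H3K27ac list had a similar number of peaks, 50834, which were wider (median 1212 bp) and covered 82.3 Mb. The promoter mark H3K4me3 was met by 902 H3K9me3 peaks by at least 1 bp, which is 1.72% of the list (95% Wilson interval 1.61% to 1.84%). On the autosomes 1.05% of H3K9me3 peak centres lay inside H3K4me3 peaks, which cover 1.41% of autosome length, so this overlap is no check of the antibody label. Expression of marker genes cannot be read from peak lists, so the cell type was not checked either.

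H3K9me3 peaks stood close together in some places and far apart in others. The median gap from the end of a peak to the start of the next was 6.55 kb (quartiles 0.828 and 38.5 kb, 52410 gaps), while the mean was 54.3 kb, 8.29 times the median. Uneven spacing was seen in the other histone lists too, with a mean 6.55 times the median for H3K27ac, 7.58 times for H3K4me1 and 3.25 times for H3K4me3. Gaps of up to 0.1 kb made up 4.77% of all gaps, those from 0.1 to 1 kb 22.7%, those from 1 to 10 kb 28.1%, those from 10 to 100 kb 32%, those from 100 kb to 1 Mb 11.8% and wider ones 0.551%. Joining peaks over gaps of up to 1 kb left 38028 regions, and 45.0% of peaks were joined to at least 1 other in this way, with at most 26 peaks in a region.

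The acetylation list offered a comparison at nearly the same number of peaks and the same mean gap, 55.3 kb for H3K27ac. Its median gap was wider, 8.45 kb, and its upper quartile was narrower, 36.3 kb against 38.5 kb. Gaps from 100 kb to 1 Mb made up 11.8% (11.6% to 12.1%) for H3K9me3 against 9.98% (9.72% to 10.2%) for H3K27ac. Gaps from 1 to 10 kb made up 28.1% (27.8% to 28.5%) against 26.3% (25.9% to 26.6%), and those between, from 10 to 100 kb, 32% (31.6% to 32.4%) against 36.7% (36.2% to 37.1%). H3K4me3 peaks, which sit mainly at promoters, were spaced most widely of the 4 marks, with a median gap of 38.0 kb.

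**Figure D1:**
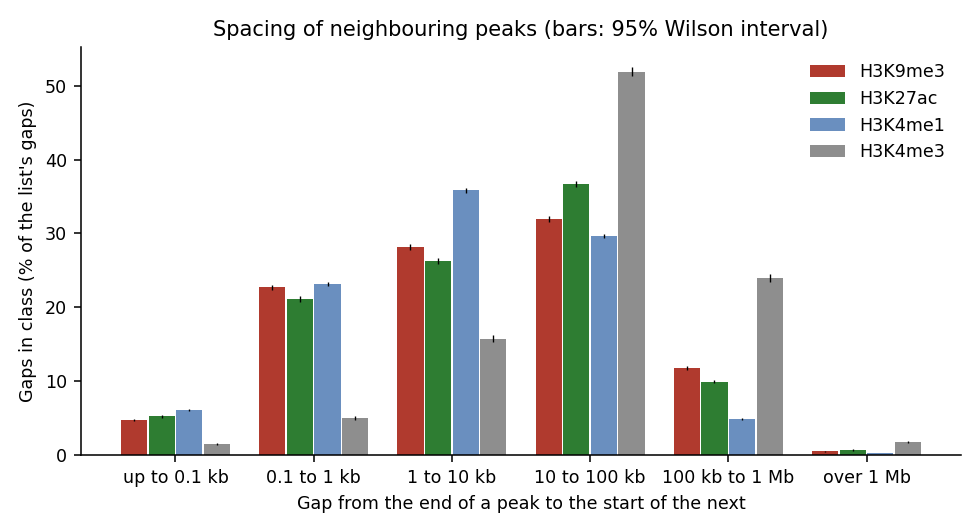
Share of gaps between neighbouring peaks (y axis, % of the gaps of a list) in 6 classes of gap length (x axis) for the 4 histone mark lists, with 95% Wilson intervals as error bars. H3K9me3 gaps are spread over the classes from 0.1 kb to 100 kb, with 22.7%, 28.1% and 32%. The spread is similar for H3K27ac (21.13%, 26.25% and 36.65%) and H3K4me1 (23.11%, 35.85% and 29.68%), whereas 51.9% of H3K4me3 gaps lie between 10 and 100 kb.

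A run was defined as consecutive peaks with gaps of at most 10 kb, and a run of 20 or more peaks was called long. The list formed 23282 runs. Single peaks without a neighbour within 10 kb numbered 14095, or 26.9% of the list (26.5% to 27.3%). Runs of 2 to 4 peaks held 35.0%, runs of 5 to 9 held 15.6% and runs of 10 to 19 held 9.59%. The 136 long runs held 6828 peaks, or 13.0% (12.7% to 13.3%). Of these peaks 3860 lay in 32 runs of 50 or more peaks, so the largest runs contributed more peaks than the 104 runs of 20 to 49 peaks did. By the same rule 5.71% (5.51% to 5.92%) of H3K27ac peaks and 9.42% (9.23% to 9.61%) of H3K4me1 peaks were in long runs. The largest run held 78 H3K27ac peaks and 88 H3K4me1 peaks, against 323 for H3K9me3. The H3K4me1 list is the longest of the series, with 92421 peaks.

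Long runs had a median length of 89.5 kb, from 37.2 to 709 kb, and 56 of the 136 were 100 kb or longer. Peaks covered a median of 36.1% of the length of a long run, from 18.4% to 74.8%, at 2.15 to 5.91 peaks per 10 kb. The gap between neighbours inside a run had a median of 1.07 kb in runs of 2 to 4 peaks, 1.21 kb in runs of 5 to 9, 0.95 kb in runs of 20 to 49 and 0.774 kb in runs of 50 or more. The median width rose with the size of the run, from 657 bp for single peaks to 750 bp in runs of 10 to 19 and 843 bp in runs of 50 or more. The median score was 75.3 for single peaks, 111 in runs of 10 to 19, 121 in runs of 20 to 49 and 111 in runs of 50 or more, so the largest runs had the widest peaks but not the highest scores. At the ends of long runs, the first and last 3 peaks had a median score of 99.1 (quartiles 66.6 and 195) and a median width of 756 bp, compared with 117 (71.3 and 217) and 824 bp for the 6012 peaks between them. These ranges overlap widely.

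The 10 runs with most peaks held 2133 peaks, 31.2% of all peaks in long runs, and lay on 4 chromosomes (rn5 coordinates). The largest, with 323 peaks over 709 kb, lay at chr3:182445134-183154462, at 99.3% of the chromosome's length, and 62.3% of it was covered. Chromosome 3 carried a pair of further runs, chr3:175607057-176306356 with 297 peaks and chr3:176572852-177021439 with 193. On chromosome 6 the run chr6:140102087-140757476 held 239 peaks and chr6:139341706-139725793 held 161.

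Chromosome 12 carried 4 of the 10. They were chr12:44540120-45060727 with 205 peaks, chr12:34628964-35165258 with 192, chr12:52430353-52825554 with 170 and chr12:16433352-16767007 with 160. The remaining run, at chr9:12760443-13177700, held 193 peaks and was the second most completely covered of the 10, at 58.1%. The lowest coverage among the 10, 32.2%, belonged to the run on chromosome 12 that starts at 34628964. The median scores of the 10 runs went from 83.1 for the run of 239 peaks on chromosome 6 to 177 for the largest run.

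Overlap of H3K9me3 peaks with H3K27ac and H3K4me1 was higher in runs of 10 to 49 peaks than among single peaks, and lowest in runs of 50 or more. Over the whole list 9.01% of H3K9me3 peaks met H3K27ac, which marks active promoters and enhancers, and 9.44% met H3K4me1, which marks mainly enhancers. By centre 7.54% of the list lay inside H3K27ac peaks. These cover 2.21% to 5.65% of an autosome's length, leaving out stretches of 1 Mb or more without any peak. Chromosome by chromosome, the share by centre exceeded that coverage on every autosome except chromosome 12, with 3.76% against 4.40%. Among single peaks 5.90% (5.53% to 6.30%) met H3K27ac, among runs of 2 to 4 peaks 7.48% (7.11% to 7.87%), among runs of 5 to 9 peaks 12.8% (12.1% to 13.5%), among runs of 10 to 19 peaks 17.1% (16.1% to 18.1%) and among runs of 20 to 49 peaks 16.7% (15.4% to 18.1%). In runs of 50 or more peaks it was 3.13% (2.63% to 3.73%), below the share among single peaks.

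H3K4me1 was met by 6.10% of single peaks, 17.5% (16.5% to 18.6%) in runs of 10 to 19, 20.3% (18.9% to 21.8%) in runs of 20 to 49, its highest class, and 3.86% (3.30% to 4.52%) in runs of 50 or more. H3K4me3 was met by 1.95% (1.74% to 2.19%) of single peaks, fewer in runs of 2 to 4, 1.37% (1.21% to 1.55%), then 2.21% of those in runs of 10 to 19, 3.03% (2.47% to 3.71%) of those in runs of 20 to 49 and 0.311% (0.178% to 0.543%) of those in runs of 50 or more. A wider peak has more chance to touch another, so the shares were repeated with peak centres. Centres inside H3K27ac peaks were 4.82% for single peaks, 14.4% for runs of 10 to 19, 14.1% for runs of 20 to 49 and 2.93% for runs of 50 or more, the same order of these 4 classes as by overlap. H3K27ac peaks covered 4.93% of the length of single peaks, 10.5% of the span of runs of 10 to 19 and 2.25% of that of runs of 50 or more. Of autosome length they covered 2.21% (chromosome 2) to 5.65% (chromosome 10), leaving out stretches of 1 Mb or more without any peak. By centre, the share of runs of 50 or more lay within this range. That of single peaks, 4.82%, lay below chromosome 10 but above chromosome 7, the next highest at 4.69%. Shares by centre lay above the whole range for runs of 2 to 4 (6.19%), 5 to 9 (10.8%) and 10 to 49 peaks.

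**Figure D2:**
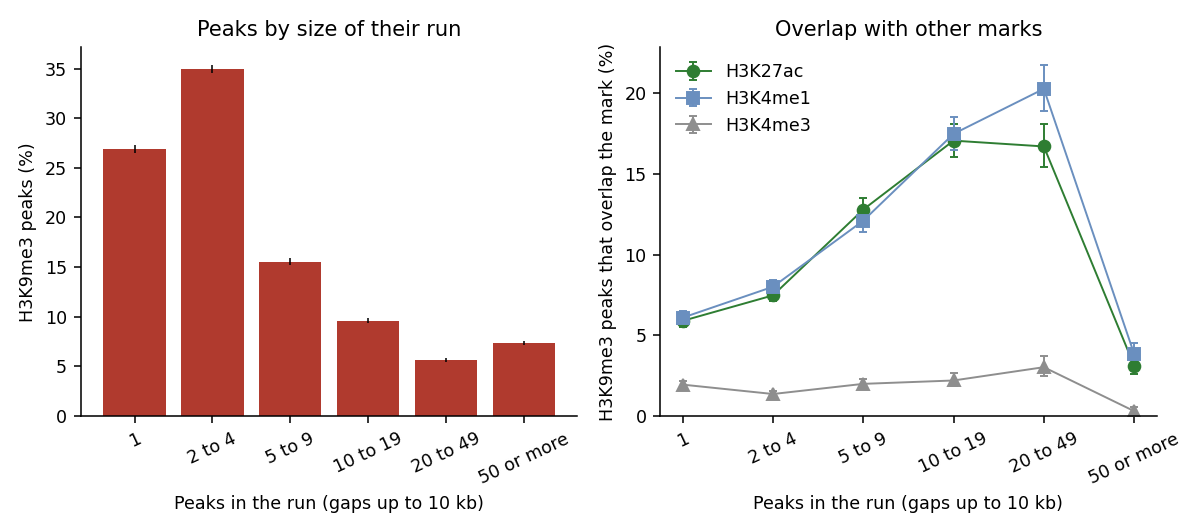
Left, share of H3K9me3 peaks (y axis, %) by the number of peaks in their run (x axis). Right, share of those peaks that overlap H3K27ac, H3K4me1 or H3K4me3 (y axis, %) in the same classes, with 95% Wilson intervals as error bars. Overlap with H3K27ac is 5.90% for single peaks, 17.1% in runs of 10 to 19 peaks and 3.13% in runs of 50 or more.

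Most of the largest runs had little or no overlap with H3K27ac. Of the 32 runs of 50 or more peaks, 22 had no H3K9me3 peak that met H3K27ac, 3 had 1 and 7 had more. Of the 13 runs of 100 or more peaks, 12 had none, the run of 193 peaks on chromosome 9 among them, and 1 of their 2499 peaks met H3K27ac, which is 0.0400% (0.00706% to 0.226%). In the 19 runs of 50 to 99 peaks 120 of 1361 did, 8.82% (7.42% to 10.4%). These classes of run size, and the split by chromosome that follows, were set after the values were seen. On chromosomes 3, 6 and 12, which carry 23 of the 32 runs, 18 runs had no overlap and 10 of 3111 peaks met H3K27ac, 0.321% (0.175% to 0.591%). Of the 9 runs on other chromosomes 4 had none, and 111 of 749 peaks met H3K27ac, 14.8% (12.5% to 17.5%). A single run, at chr7:26830698-27000318, supplied 60 of these 111 overlaps, and without it the share was 7.51% (5.76% to 9.74%). In that run 60 of 70 H3K9me3 peaks met H3K27ac and 59 met H3K4me1, and the scores there had a median of 175. On chromosome 12, 8 of 1816 peaks in long runs met H3K27ac (0.441%), while 7.13% (5.01% to 10.1%) of its single peaks did, against 5.87% (5.49% to 6.27%) of single peaks elsewhere.

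Runs of intermediate size were mixed. Of the 485 runs of 10 to 49 peaks, 236 had no H3K9me3 peak that met H3K27ac, and in 68 runs 50% or more of the peaks did. Those 68 runs held 760 of the 1354 overlaps in this class. The long runs with most H3K27ac peaks inside, after the one on chromosome 7, lay at chr16:49520781-49643647, where 22 of 39 H3K9me3 peaks met H3K27ac, and at chr9:44575323-44649686, where 26 of 30 did. These 3 regions were picked after their values were seen. Of the 136 long runs, 43 contained no peak of H3K27ac, H3K4me1 or H3K4me3. No peak of SOX9 or SOX6, the chondrocyte transcription factors mapped in the same cells, lay in 77 of them. How many stretches of similar length elsewhere lack such peaks was not computed, so these counts have no background share. In the SOX9 list and in the SOX6 list the mean gap between peaks was longer than the median long run. Whether such absence is particular to long runs was therefore not tested. Over the whole list 0.95% of H3K9me3 peaks met SOX9 and 1.09% met SOX6. In runs of 50 or more peaks the shares were 0.674% (0.460% to 0.985%) and 0.803% (0.566% to 1.14%).

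Wider H3K9me3 peaks had higher scores. Spearman's rho between width and score was 0.714 across the 52431 peaks, which share a library, so it is a description without a test. How the score was calculated is not stated, so a link with width set by that calculation cannot be told apart from one in the cells. The median width was 557 bp (quartiles 525 and 611 bp) in the lowest quintile of score, 615 bp in the second, 700 bp in the third, 895 bp (731 and 1083 bp) in the fourth and 1335 bp (986 and 1784 bp) in the highest. Peaks of 2 kb or more were 18.0% of the highest quintile and 0.0191% of the fourth, and the lower quintiles had 0%. The relation was tighter in runs of 50 or more peaks (rho 0.857) than among single peaks (0.668). It was stronger in the other histone lists, at 0.885 for H3K27ac, 0.898 for H3K4me1 and 0.868 for H3K4me3.

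**Figure D3:**
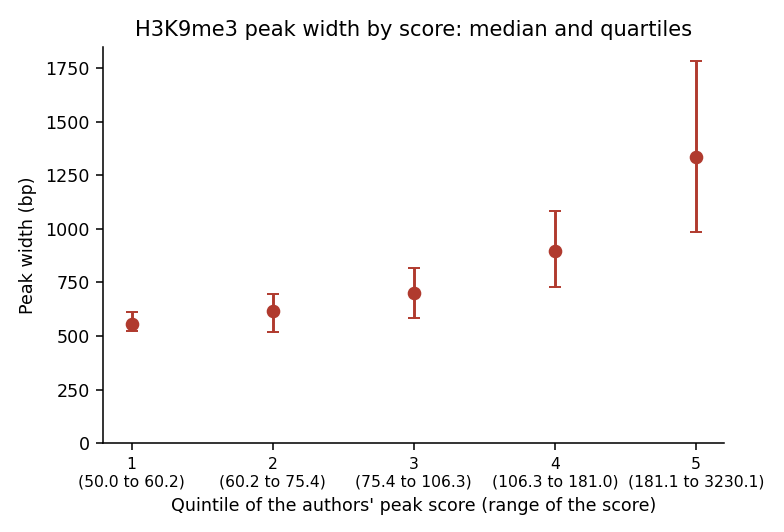
Median width of H3K9me3 peaks (points, y axis in bp) in quintiles of the authors' peak score (x axis, with the range of the score), with lines from the lower to the upper quartile. The median is 557 bp in the lowest and 1335 bp in the highest quintile, and the quartile range of the highest quintile lies above the medians of the other 4.

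Higher-scoring peaks also had closer neighbours. The median distance to the nearest peak was 3.28 kb in the lowest quintile and 0.583 kb in the highest, the share of single peaks went from 35.1% to 15.1%, and the share in long runs from 8.70% to 19.9%. Neighbouring peaks resembled each other weakly in score. Across the 11905 pairs with a gap of 0.1 to 1 kb the rank correlation of their scores was 0.250, and across the 16769 pairs with a gap of 10 to 100 kb it was 0.0496. Widths of neighbours were related less, at 0.123 and 0.0299.

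The highest scores met active marks more often than the rest did. A score of 3100 was shared by 232 peaks, and 19 peaks scored above it. Of these 251 peaks, 182 (72.5%) met H3K27ac, 176 (70.1%) met H3K4me1 and 100 (39.8%) met H3K4me3, compared with 9.01%, 9.44% and 1.72% of the whole list. By centre, 52.2% (46.0% to 58.3%) lay inside H3K27ac peaks and 28.3% (23.1% to 34.2%) inside H3K4me3 peaks. The median width of the 251 was 2449 bp (quartiles 1312 and 3958 bp), but 41 of them were under 1 kb. Of the 251, 28 were single peaks, and 60 were in long runs. By quintile of score, H3K27ac was met by 7.06% of the lowest, 6.42% of the second, 7.57% of the third, 8.24% of the fourth and 15.7% (15.1% to 16.5%) of the highest.

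Width gave a similar picture. Peaks under 500 bp met H3K27ac in 5.97% of cases, those of 500 to 1000 bp in 7.64%, those of 1 to 2 kb in 12.9%, those of 2 to 4 kb in 20.8% (18.9% to 22.8%) and the 160 peaks of 4 kb or more in 44.4% (36.9% to 52.1%). By centre the widest class fell inside H3K27ac in 22.5% (16.7% to 29.6%) and peaks under 500 bp in 5.58%, a smaller rise than by overlap. Of the widest class 36.3% were in long runs and 3.13% were single.

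The 5 widest peaks lay on 5 chromosomes. The widest, of 15000 bp, lay at chr1:56915048-56930047, belonged to a run of 31 peaks and met H3K27ac, H3K4me1 and H3K4me3. The peak of 10650 bp at chr10:95914064-95924713 met no other list. Those at chr7:26890766-26900425 and chr16:54213804-54222447 met H3K27ac and H3K4me1, the latter also H3K4me3, and that at chr19:31615542-31624275 met H3K27ac alone. None of the 5 met a SOX9 or SOX6 peak.

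By score, the first was a peak of 4971 bp at chr12:20148003-20152973 with a score of 3230, which met no other list. Nor did those at chr1:38142467-38145441 and chr9:11329816-11331442. The peak at chr14:94159972-94162277 met H3K27ac and H3K4me1, and that at chr9:44579103-44583438 met H3K27ac, H3K4me1, SOX9 and SOX6. The scale of the score is not stated, so values above 3100 cannot be ranked as stronger enrichment than 3100 itself.

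Chromosome 12 stood apart from every other chromosome. The histone input held 38604970 reads, of which 20595997 aligned and 16352477 matched without a mismatch. On chromosome 12 there were 4153 H3K9me3 peaks and 264068 such input reads, or 15727 peaks per 1000000 input reads (exact Poisson interval 15252 to 16213). Chromosome 19 followed with 5430 (5191 to 5677) and chromosome 3 with 3696 (3582 to 3814). The median of the 20 autosomes was 2995 (quartiles 2477 and 3511). The lowest were chromosome 11 with 1769 (1676 to 1867), chromosome 18 with 2330 (2192 to 2475) and chromosome 15 with 2363 (2215 to 2519), and X had 1497 (1387 to 1614).

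The ratio of the highest to the lowest autosome was 8.89, and without chromosome 12 it was 3.07. The low rate of chromosome 11 stood beside an unusual input there. Of the input reads aligned to it, 44.7% were without a mismatch, against 66.7% to 89.3% on the other autosomes. Over all aligned reads the rate of chromosome 11 was 790 peaks per 1000000 input reads and that of chromosome 12 was 13040, and they remained the lowest and the highest of the autosomes. Input reads per Mb on chromosome 12 were 0.957 times the autosome median.

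**Figure D4:**
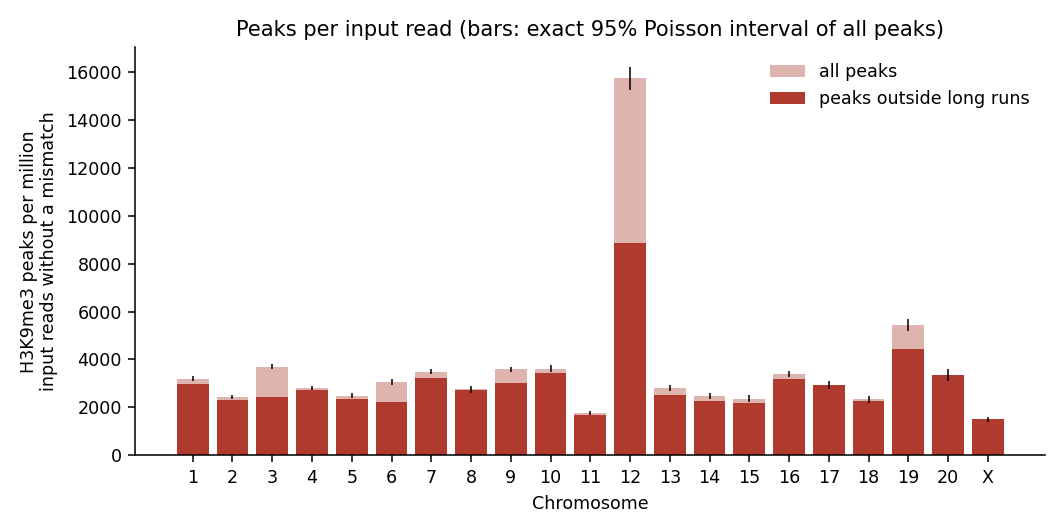
H3K9me3 peaks per 1000000 input reads without a mismatch (y axis) on each chromosome (x axis), for all peaks (light bars, with exact 95% Poisson intervals) and for peaks outside long runs (dark bars, drawn from 0 within the light ones). Chromosome 12 reaches 15727 for all peaks and 8850 outside long runs, and chromosome 19 is next with 5430 and 4438.

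Long runs were concentrated on a few chromosomes. Chromosome 12 carried 26 of the 136 long runs and 1816 of their 6828 peaks, and 43.7% of its peaks were in long runs, the largest share of any chromosome. Chromosome 3 had 34.5%, chromosome 6 had 26.8%, chromosome 19 had 18.3% and chromosome 9 had 15.4%, while chromosomes 17, 20 and X had no long run. Without peaks of long runs chromosome 12 still had 8850 peaks per 1000000 input reads, chromosome 19 had 4438 and the autosome median was 2730. Chromosome 3, however, went from 3696 to 2421 and chromosome 6 from 3064 to 2243, below that median. The median gap was 1.88 kb on chromosome 12, 2.56 kb on chromosome 3 and 18.9 kb on chromosome 20. Median score and width differed less between autosomes, from 77.9 to 101 and from 668 to 733 bp, and chromosome 12 had 88.8 and 725 bp.

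Chromosome 12 was also high in the other lists, though less so. Per 1000000 input reads it had 5.25 times the autosome median of H3K9me3 peaks, 1.77 times that of H3K27ac, 1.66 times that of H3K4me1, 1.76 times that of H3K4me3, 1.53 times that of SOX9 and 1.73 times that of SOX6 peaks. These ratios share the same input counts. They are from 1 library each, and the differences between them could not be tested.

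Peaks per Mb went with input reads per Mb on the other chromosomes. Per Mb the autosomes went from 8.23 peaks on chromosome 15 to 76.3 on chromosome 12, with a median of 16.4. Over 20 autosomes Pearson's r between peaks per Mb and input reads per Mb was 0.374 and Spearman's rho 0.768, and over the 19 without chromosome 12 they were 0.860 and 0.868. Chromosomes 16, 9 and 7 had 2.03, 2.02 and 1.88 times the median input density and 35.0, 36.7 and 33.2 peaks per Mb. Per input read, these 3 chromosomes were near the rest, at 3399, 3585 and 3487. The same length stands under both quantities, and these are descriptions across chromosomes of 1 pair of libraries.

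Across autosomes, the share of H3K9me3 peaks that met H3K27ac went with the input density too, but X did not follow. Chromosome 7 had 14.1% (13.1% to 15.1%), chromosome 16 had 13.3%, chromosome 9 had 12.8% and chromosome 11 had 11.98%, all with a dense input. Chromosome 20 had 5.02% (3.61% to 6.93%) and chromosome 12 had 4.19% (3.62% to 4.84%). X, with the thinnest input, 0.583 times the autosome median, had 11.3% (9.10% to 13.9%). Of the 684 peaks on X, 64 met both H3K27ac and H3K4me3. This share and the overlap of X with H3K4me3 described below therefore rest largely on the same peaks. Over 20 autosomes r was 0.876 and rho 0.731, and over 19 without chromosome 12 they were 0.897 and 0.763. The share of chromosome length under H3K27ac peaks moved with the input as well (r 0.502, lengths without stretches that hold no peak of any list), and its part in the result was not tested. Chromosome 10 had the largest share of its length under H3K27ac, 5.65%, and 10.7% of its H3K9me3 peaks met H3K27ac.

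On X, H3K9me3 peaks were few but met H3K4me3 often. Of 684 peaks 83 did, 12.1% (9.90% to 14.8%), against 819 of 51747 on the autosomes, 1.58% (1.48% to 1.69%). The highest autosome in this respect was chromosome 14 with 2.78% (2.03% to 3.79%). By centre the shares were 11.1% (8.97% to 13.7%) and 1.05% (0.965% to 1.14%). The 83 peaks were spread over 46 bins of 1 Mb with at most 6 in a bin, 52 of them were single peaks, 64 also met H3K27ac and their median score was 99.2. Of the 819 such peaks on the autosomes, 223 were single, 641 also met H3K27ac and the median score was 145. Acetylation of these peaks was therefore not particular to X. H3K4me3 peaks covered a smaller share of X, 0.637% of its length, than of the autosomes, 1.41%. Seen from the promoter mark, 79 of 606 H3K4me3 peaks on X met H3K9me3 (13.0%, 10.6% to 16.0%), against 3.53% (3.29% to 3.78%) of the 22510 on autosomes. Input reads per Mb on X were 0.583 times the autosome median, and the part of this in the overlap was not tested.

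Peaks were counted by centre in 2914 bins of 1 Mb, and the 60 bins at or above the 98th percentile, which is 101 peaks, were called dense (2.06% of bins). The median bin held 9 peaks (quartiles 3 and 22) and the dense bins 101 to 386. The dense bins held 18.5% of all peaks. The 10% of bins with most peaks held 46.2% of the list and the upper 50% held 91.2%. For H3K27ac, the 2% of bins with most peaks held 10.4% of its peaks, against 18.3% for H3K9me3.

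Dense bins were found more often in the last part of chromosomes than bins in general, with chromosome 3 as the main contributor. Of the 60, 15 were in the last 10% of chromosome length, counted from position 1 upward (25%, 15.8% to 37.2%), and 8 were in the first 10% (13.3%, 6.91% to 24.2%). Of all bins 10.4% and 9.92% lie there. Both ends together held 38.3% of dense bins (27.1% to 51.0%) and 20.3% of all bins. The interval for the first 10% includes the share of all bins. By the same rule the outer parts held 23.7% (14.7% to 36.0%) of dense H3K27ac bins, 25.4% (16.1% to 37.8%) of dense H3K4me1 bins and 20% (11.8% to 31.8%) of dense H3K4me3 bins, and these intervals overlap that of H3K9me3. Within 5 Mb of an end lay 13.3% of dense bins (6.91% to 24.2%) and 7.65% of all bins, and this interval includes the share of all bins.

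Without chromosome 3, all 6 of whose dense bins lay in the last 10%, both ends together held 29.8% (19.5% to 42.7%), an interval that includes the share of all bins. Counted over all peaks rather than bins, the last 10% of chromosome length held 17.0% of the list and the first 10% held 10.1%. The last 10% held 33.2% of the peaks in long runs. Runs of 323, 297 and 193 peaks on chromosome 3 lie there, and this share was not computed without that chromosome. More than 10% of a chromosome's peaks lay in the last 10% on 14 of the 21 chromosomes, and in the first 10% on 11. Chromosome 3 had 50.6% of its peaks in the last 10%, chromosome 8 had 33.6%, chromosome 13 had 28.9% and chromosome 5 had 28.5%. Chromosomes 17 and 20 had 2.66% and 2.36%. Without chromosomes 3 and 12 the last 10% held 14.6%.

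**Figure D5:**
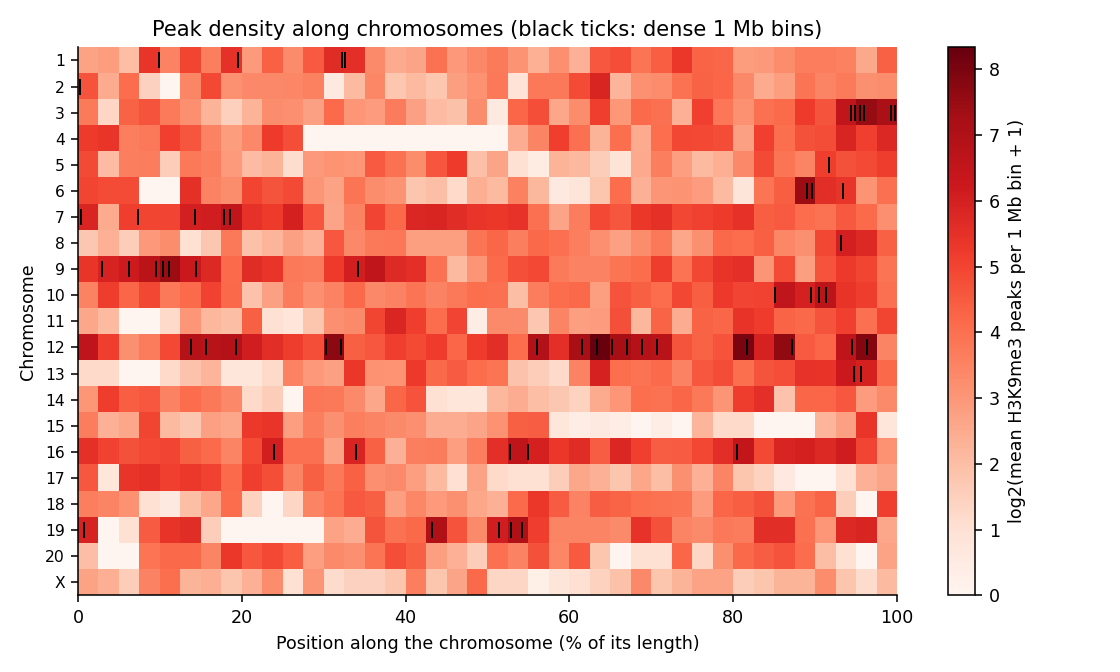
Mean number of H3K9me3 peaks per 1 Mb bin, as log2(mean + 1) (colour), in steps along each chromosome (y axis) by position in % of its length (x axis), with black ticks at the centres of the 60 dense bins. All 6 ticks on chromosome 3 lie in the last 10%, and the 16 on chromosome 12 are spread along it. The pale block on chromosome 4 is a stretch without a peak in any list.

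Chromosome 12 had 16 of the 60 dense bins among 55 bins, spread from 12.9% to 97.3% of its length, and 2 of them lay in the outer parts. Its median bin held 41 peaks (quartiles 21.5 and 112), compared with 10 (3 and 22) on the other autosomes. Chromosome 9 had 7 dense bins, chromosome 3 had 6, chromosomes 7, 16 and 19 had 5 each, and 8 chromosomes had none. These counts are not scaled by input. Input reads per Mb on chromosomes 9, 16 and 7 were 2.02, 2.03 and 1.88 times the autosome median, and the part of this in their dense bins was not tested. The 60 bins formed 38 blocks, of which 25 were isolated bins and the longest was 6 bins at chr12:33000001-39000000, with 976 peaks. On chromosome 3 the block of 4 bins chr3:173000001-177000000 held 894 peaks, and on chromosome 9 the block of 3 bins chr9:11000001-14000000 held 671.

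The bin with most peaks, 386, was at chr3:182000001-183000000, and peaks covered 519 kb of it. The next were on chromosome 3 from 176000001 (348 peaks), chromosome 12 from 34000001 (322), chromosome 6 from 140000001 (311) and 139000001 (305), and chromosome 12 from 47000001 (290). Chromosome 9 from 12000001 held 286, chromosome 12 from 44000001 and 16000001 held 255 and 253, and chromosome 3 from 175000001 held 240. In 9 of these 10 bins 88.1% to 100% of peaks were in long runs, and in the bin on chromosome 9 it was 68.2%. The bin on chromosome 9 was also the one with most H3K27ac peaks, 54, together with 60 H3K4me1 and 16 SOX6 peaks, while the other 9 had 0 to 16 H3K27ac peaks. The bin on chromosome 12 from 34000001 held 322 H3K9me3 peaks and no peak of any of the other 5 lists.

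Dense bins in general were not free of active marks. They held a median of 17 H3K27ac peaks (quartiles 5.75 and 36.8), 28 H3K4me1 peaks and 7 H3K4me3 peaks, and the 2499 other bins with an H3K9me3 peak held 13 (4 and 29), 25 and 7. At this scale of 1 Mb dense H3K9me3 and active marks shared bins. The 10 bins with most H3K9me3 peaks held fewer H3K27ac peaks than this median, 0 to 16, except for 54 on chromosome 9. Within the runs of 100 or more peaks H3K9me3 and H3K27ac rarely touched.

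No H3K9me3 peak fell in 355 bins (12.2%). Of these, 164 had no peak in any list and 191 had peaks of another list. The longest stretch without a peak in any list was 65.2 Mb at chr4:67919747-133133558, and the next were 19.6 Mb on chromosome 2, 11.4 Mb on chromosome 19 and 10.3 Mb on chromosome 6. Such stretches of 1 Mb or more add up to 242 Mb. They lower the densities per Mb of their chromosomes, for example from 23.4 to 17.1 H3K9me3 peaks per Mb on chromosome 4. Input reads are counted per chromosome, so whether any fall in these stretches, and what that does to the rates per input read, was not known. With these stretches left out, r between input density and peaks per Mb was 0.313 over 20 autosomes and 0.820 over 19 without chromosome 12.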

How the data were processed

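The H3K9me3 peak list, the 5 other peak lists and 4 input libraries of RCS cells were used. Each peak carries a score that the authors deposited, and the peak names hold the name of MACS. The inputs are raw read counts per chromosome by mismatch class, per the file headers. The submitters' processing notes name CASAVA 1.8 and build rn5. For the caller's settings, the aligner and the input behind each list, the sources used here give nothing. Starts were read as counted from 0 and are printed counting from 1. The last peak end over all lists stood in for chromosome length. Gaps, runs (gaps of at most 10 kb, long from 20 peaks), overlaps (1 bp), bins (1 Mb) and rates were computed with Python 3.11.15, numpy 2.4.6, pandas 2.3.3 and scipy 1.17.1. The functions were tested on simulated lists. Shares carry Wilson and rates exact Poisson 95% intervals. The members and lists were chosen with earlier results of these data known. Named regions are the 10 runs and 10 bins with most peaks, the 5 widest and 5 highest-scoring peaks, and the 3 autosomes with the highest and the 3 with the lowest rates. Other regions and chromosomes named (long runs with many H3K27ac peaks, blocks of dense bins, stretches without peaks) were chosen after their values were seen. A genome or annotation of rn5 was not used here, so no sequence is printed and no region is assigned to a gene. Alternatives covered the run definition, the score, the input, the bins and single chromosomes, some of them chosen after seeing the data.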

Additional observations from a re-analysis of the deposited data

How the results depend on the processing

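Of 36 alternative values, 15 stayed within the 95% interval of the reported value and 21 did not, and the cause was not tested except where fewer peaks or another definition sets the change. The median gap was 11.7 kb between peaks at or above the median score, 7.42 kb between centres and 7.65 kb without chromosome 12. The share of peaks in long runs was 5.99% with gaps of at most 5 kb, 22.1% with 20 kb, 22.6% for runs of 10 or more, 7.36% for 50 or more, 8.43% for peaks at or above the median score, 10.4% without chromosome 12 and 11.3% without chromosome 3. The rank correlation of width and score was 0.772 in long runs and 0.668 among single peaks. The ratio of the highest to the lowest autosome was 11.7 with reads of up to 1 mismatch, 16.5 with all aligned reads, 5.31 outside long runs and 3.07 without chromosome 12, and 8.38 to 9.09 with the other 3 inputs. Chromosome 11 was the lowest autosome under the first 2 of these, as in the reported value. Dense bins within 5 Mb of an end were 13.3%, and with the other alternatives 29.8% to 44.1% of dense bins lay in the outer parts. The share of peaks in long runs that met H3K27ac was 9.04%, against 5.90% of single peaks. It was 7.81% against 4.82% by centre, 5.12% against 3.75% at or above the median score of each list, 12.2% against 5.87% without chromosome 12, and 19.9% against 5.86% without chromosomes 3, 6 and 12 (chosen after seeing the data). Counting reads with up to 2 mismatches was not run, because the inputs pool reads with 2 or more. No paired analysis was possible because each antibody has 1 library. Depth of the H3K9me3 library was not used here, so weakly marked regions below a score of 50.03 cannot be told from unmarked ones.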
